A study of Mus musculus with 21 samples.

Results

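The p53 tumour suppressor is held at a low level in unstressed cells by Mdm2, the ubiquitin ligase that marks it for destruction. When DNA is damaged, kinases release p53 from Mdm2, and p53 then switches on genes that halt the cell cycle, assist repair, restrain growth signalling or start cell death. Mdm2 is itself a p53 target, which closes a negative feedback loop. Since p53 is controlled mainly at the protein level, the transcripts of its targets are the usual readout of its activity on expression arrays.

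The 10 genes of this response described here were followed in mouse liver after a dose of titanium dioxide nanoparticles was placed in the airways. They are Trp53 itself, its regulator Mdm2, the growth arrest and stress feedback genes Cdkn1a, Ccng1, Gadd45a, Gadd45b and Sesn2, and the cell death genes Bax, Bbc3 and Trp53inp1. The members were set by gene symbol and found through the RefSeq accession that each array probe carries. All 10 were on the array, with 15 probes between them, out of 16535 named genes, and all 10 passed the filter on dim probes.

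The mice were female C57BL/6 animals, bought at 5 to 7 weeks of age and acclimatised for 1 to 3 weeks. Treated mice received 162 µg of nano-TiO2 once by intratracheal instillation in 40 µl of fluid, and control mice received the same volume of vehicle, a 0.9% NaCl solution that contained 10% cell-free lavage fluid from other mice. Livers were taken 1 day or 28 days later, and each liver was measured on its own array. Arrays from 5 control and 6 TiO2 mice at day 1 and from 4 control and 6 TiO2 mice at day 28 were analysed. Every group had thus been anaesthetised and instilled, and the dose was a single one in all treated mice. The comparison asks whether the instillation was followed by a transcript pattern of genotoxic stress in the liver, an organ distant from the site of deposition.

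Each of the 21 arrays carried liver RNA labelled with Cy5 and, as a common reference, pooled RNA of mouse cell lines labelled with Cy3, with no dye swap. A level here is the log2 ratio of liver over reference after normalization within each array, so 0 stands for the ratio typical of that array's probes and a negative level for a lower one. Levels are compared between livers for one gene, never between genes. The extraction text of the labels names lung, whereas the tissue label names liver. All 7 hepatocyte markers on the array, such as albumin and apolipoprotein genes, exceeded background on each of the arrays, and their median level lay between 5.34 and 6.74. Of 10 lung markers, 2 to 8 per array were above background, with a median level between -0.14 and 0.11. The arrays were scanned on 3 days, each of which held all 4 groups. Scan day 1 held only 1 control array of each time, and scan day 3 only 1 control array of day 28. The scan days differed in sensitivity, with 20879 to 26616 liver probes above background on scan day 2 against 12985 to 16903 on the others. Scan day accounted for 91.7% of the first principal component, which held 40.1% of the variance.

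Upstream sequence is shown for the 5 members whose promoter window held the closest match to a p53 response element, a pair of half-sites that the p53 tetramer contacts. RefSeq promoter windows (GRCm38.p6, 250 bases before the transcription start and 50 after it) were held for 9 of the 10 members, and not for Trp53inp1. The capitals mark the best pair of half-sites with 0 or 1 base between them, each half-site having the C and the G of the p53 core. Each line gives the strand of the gene, 5′ to 3′.

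Cdkn1a, chr17:29090913-29090962, plus strand: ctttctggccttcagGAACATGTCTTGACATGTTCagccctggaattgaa
Ccng1, chr11:40755447-40755496, minus strand: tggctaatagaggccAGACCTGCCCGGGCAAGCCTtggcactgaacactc
Bax, chr7:45467064-45467114, minus strand: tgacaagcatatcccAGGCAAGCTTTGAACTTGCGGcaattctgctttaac
Bbc3, chr7:16309471-16309520, plus strand: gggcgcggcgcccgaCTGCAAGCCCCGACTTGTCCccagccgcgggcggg
Trp53, chr11:69580269-69580318, plus strand: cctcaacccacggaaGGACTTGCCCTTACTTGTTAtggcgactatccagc

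The Cdkn1a pair matched the p53 consensus at 19 of 20 positions and lay at -51 to -32 from the start of its window's transcript, counting the first transcribed base as 0. Another Cdkn1a window, at a later start, reached 13 matches. The Ccng1 pair also matched at 19 positions, a score that 0.11% of 32851 promoter windows reached. Bax matched at 18 positions, reached by 0.682% of windows, and Bbc3 and Trp53 at 17, reached by 2.82%. Other Bbc3 windows reached 14 and 12. For a gene with several windows the one with the best pair is shown, whereas the percentages count single windows. In the windows of Mdm2, Gadd45a, Gadd45b and Sesn2 no pair reached 17 matches. At least 1 exact half-site was present in a window of 6 members (Trp53, Cdkn1a, Mdm2, Ccng1, Gadd45a and Bax) and in 8.36% of all windows. These matches describe the letters of the windows, and a window without one says nothing about p53 binding elsewhere at the gene.

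None of the 10 genes rose or fell after TiO2 at either time by the test across all features. At day 1 the median difference of the 10 genes was 0.03 on the log2 scale, with 6 above and 4 below 0, against a median of -0.01 and 47.8% above 0 over the 17640 features tested. At day 28 the median was 0.07, with 9 above and 1 below 0, against 0.00 and 51.2% above 0 over all features. With scan day as a block the counts were 5 above and 5 below 0 at day 1 (median 0.03) and 6 above and 4 below at day 28 (median 0.05). The 10 genes are not independent of each other, so these counts of signs carry no test. The limma fit with Benjamini-Hochberg adjustment called 0 of 10 members at an adjusted p under 0.05 at either time (percent of all features called 0), and the smallest adjusted p of a member was 1.0 at both times. At an unadjusted p under 0.05 the day 1 comparison held 1 member and 1.73% of all features, and the day 28 comparison held 0 members and 0.935% of features. In no member did the treated and control mice form separate ranges at either time; such separation was seen for 0.108% of features at day 1 and 0.283% at day 28.

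The size of change that the data allow can be read from the 95% confidence intervals of the differences. For 9 of the 10 genes these lay within a 2-fold change in either direction at day 1, and for 9 of 10 at day 28, Trp53inp1 being the exception at both times. The background correction adds an offset that compresses the ratios of dim probes. The median liver signal was 101 for Cdkn1a, and from 151 to 215 for Mdm2, Bax, Trp53, Gadd45a, Ccng1, Gadd45b and Sesn2. Their local background had medians of 68 to 70.7. For these genes the interval, and so the 2-fold bound, is one of the compressed ratio. The day 1 difference of Cdkn1a was 0.34 here and 0.67 with the scanner software's log ratio, which adds no offset. The bound therefore does not carry over to a Cdkn1a ratio without the offset.

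**Figure D1:**
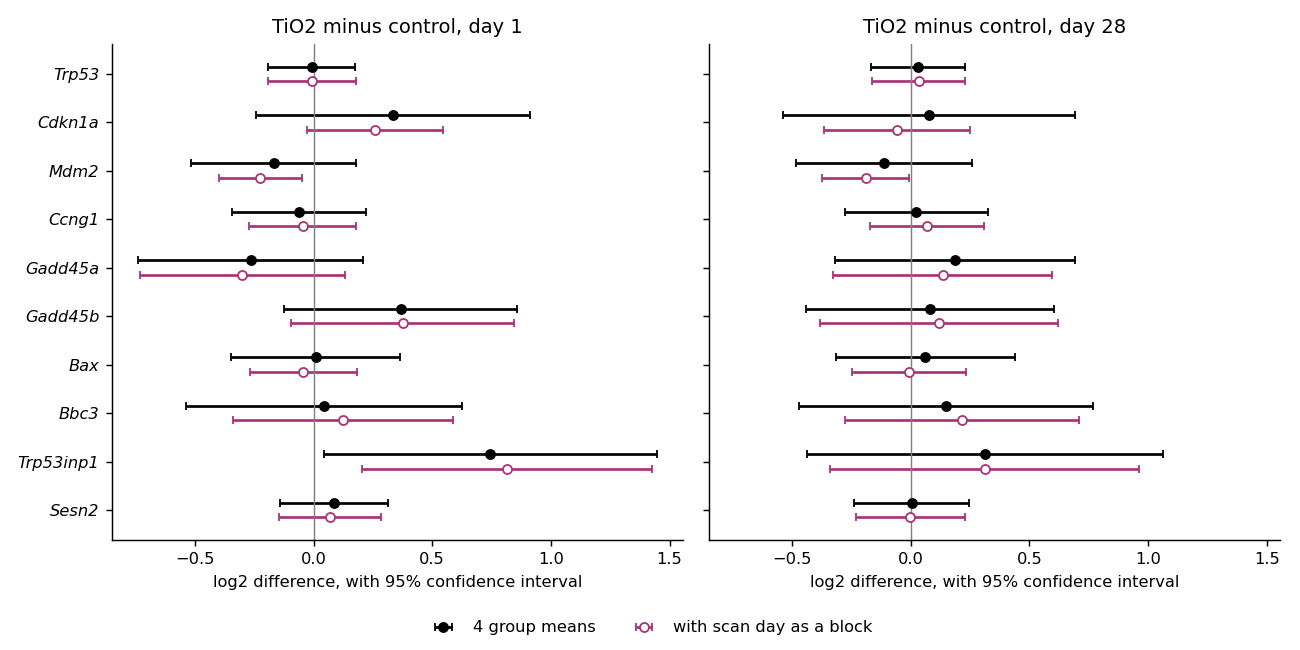
Difference between TiO2 and control mice on the log2 scale for each gene at day 1 (left) and day 28 (right), with 95% confidence intervals from limma, without (black) and with (open, purple) scan day as a block. The intervals cross 0 except those of Trp53inp1 at day 1 under both fits and of Mdm2 at both times under the block.

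Trp53 encodes p53 itself. Its level was 0.11, -0.12, -0.18, -0.23 and -0.08 in the 5 control mice at day 1, and between -0.21 and -0.05, with a median of -0.10, in the 6 TiO2 mice. On day 28 the 4 control mice had -0.26, -0.03, 0.07 and -0.16, and the TiO2 mice ran from -0.32 to 0.06 with a median of -0.04. The groups covered the same range, close to 0 throughout. The difference between TiO2 and control was -0.01 ± 0.09 (SE; 95% interval -0.19 to 0.18) at day 1 and 0.03 ± 0.09 at day 28. A second Trp53 probe gave 0.03 and 0.07. With the scanner software's log ratio, the first probe gave 0.20 at day 1, above that interval, and -0.03 at day 28. Under 0 of the settings that left out no single mouse was its limma unadjusted p under 0.05 at either time.

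Mdm2, the p53 ubiquitin ligase and p53 target, had levels of -0.34, -1.15, -1.02, -0.89 and -0.69 in the control mice at day 1, and of -1.35 to -0.58 with a median of -0.91 in the TiO2 mice. By day 28 the controls had -0.33, -0.94, -1.08 and -0.79, and the TiO2 mice ran from -1.22 to -0.66 with a median of -0.79. Values followed the scan day, which accounted for 71.3% of the variance of Mdm2 over the 21 arrays, and the highest value of each control group came from scan day 1. The difference was -0.17 ± 0.17 at day 1 and -0.11 ± 0.18 at day 28. Without that highest control, replicate 1 of each group, it was -0.05 at day 1 and 0.04 at day 28. That liver was the only control of its time on scan day 1. Leaving it out set the 2 TiO2 arrays of that scan day and time against no control, so scan day and mouse cannot be told apart in these values.

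Compared within scan days, TiO2 mice were below controls by -0.40, -0.24 and -0.11 at day 1, and at day 28 the differences were -0.39, -0.18 and 0.00. The values of scan day 1 rest on 1 control array at each time, and that of scan day 3 on 1 control array at day 28. With scan day as a block the difference was -0.22 ± 0.08 at day 1 (95% interval -0.40 to -0.05, unadjusted p 0.014) and -0.19 ± 0.09 at day 28 (unadjusted p 0.044), with limma adjusted p of 0.99 and 1.0. In the blocked fit 2 members, Mdm2 and Trp53inp1, had an unadjusted p under 0.05 at day 1 beside 4.09% of all features, and 1 member, Mdm2, at day 28 beside 3.06%. Over both days, a contrast chosen after the data were seen, the blocked difference was -0.21 ± 0.06 (unadjusted p 0.0027, limma adjusted p 1.0), and 41 of the 17640 features had a p at or below that of Mdm2. In that blocked contrast 4.26% of all features had an unadjusted p under 0.05, and 1.71% without the block; 0% were called after adjustment in either. A second Mdm2 probe was above background on 6 of 21 arrays and differed by -0.02 and -0.01.

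**Figure D2:**
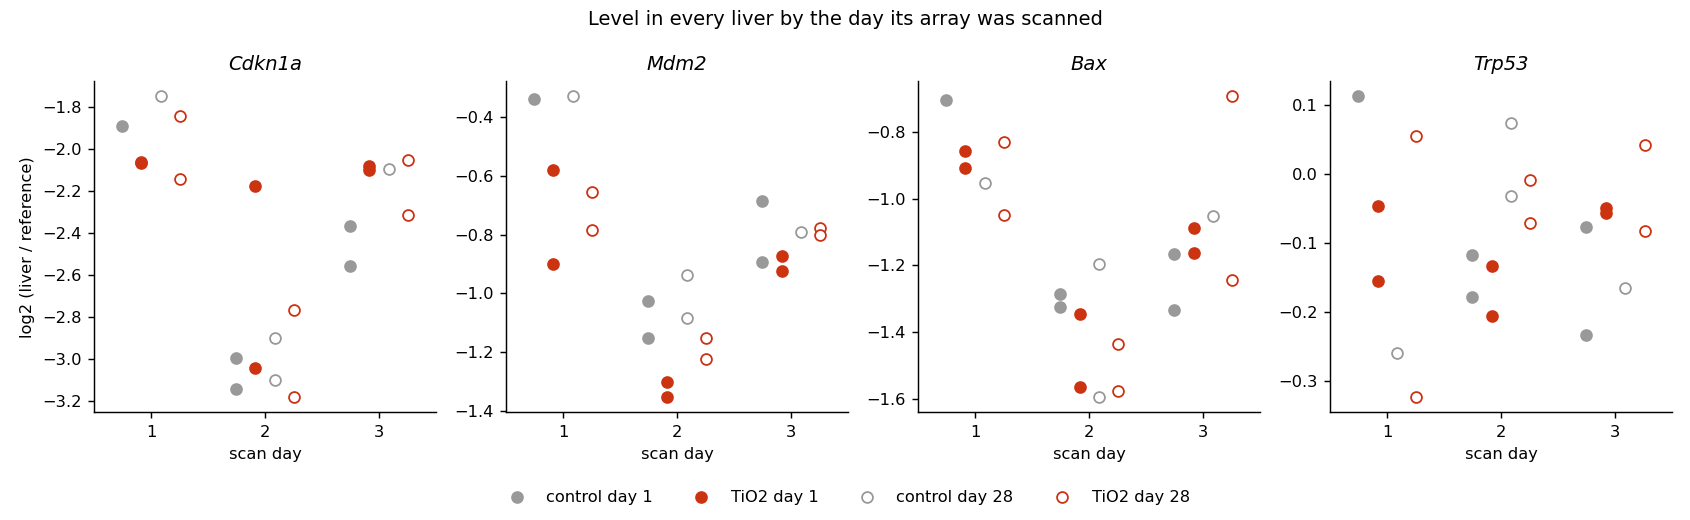
Level (log2 of liver over reference) of Cdkn1a, Mdm2, Bax and Trp53 in each of the 21 livers against the day its array was scanned, with controls in grey, TiO2 in red, day 1 filled and day 28 open. Cdkn1a, Mdm2 and Bax were mostly lowest on scan day 2, whereas Trp53 held the same range on all 3 days.

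Cdkn1a, which encodes the cyclin-dependent kinase inhibitor p21, is a widely used mark of p53 activity. Its levels were -1.89, -3.14, -3.00, -2.56 and -2.37 in control mice at day 1, and between -3.04 and -2.06, with a median of -2.09, in TiO2 mice. The day 28 controls had -1.75, -3.10, -2.90 and -2.10, and the TiO2 mice ran from -3.18 to -1.85 with a median of -2.23. All 6 TiO2 mice at day 1 lay inside the range of their controls, and 5 of them above the control mean. The Cdkn1a probe was dim in liver, with a median signal of 101 against a local background of 69.6, and was above background on 18 of 21 arrays (4 of 5 control and 6 of 6 TiO2 mice at day 1, 3 of 4 and 5 of 6 at day 28).

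The Cdkn1a difference was 0.34 ± 0.28 at day 1, a 1.26-fold ratio with a 95% interval of 0.846 to 1.88. At day 28 it was 0.08 ± 0.30, a ratio of 1.06. Neither passed (limma with Benjamini-Hochberg adjustment, adjusted p 1.0 at both times), and a two-sided exact permutation test of the 11 mice of day 1 gave p = 0.21. Scan day accounted for 76.1% of the variance of Cdkn1a, with medians of -1.98, -3.02 and -2.10 on scan days 1, 2 and 3. Within scan days the day 1 difference was -0.17, 0.46 and 0.37, so its sign was not shared. The value of scan day 1 rests on 1 control array. On scan day 2 the TiO2 mice of day 1 had -3.04 and -2.18, beside controls of -3.14 and -3.00. The unblocked difference was 0.20 without control day 1 replicate 2 and 0.51 without replicate 1, the only day 1 control of scan day 1. With scan day as a block it was 0.26 ± 0.14 (95% interval -0.03 to 0.54). The scanner software's own log ratio, which adds no offset, gave 0.67 ± 0.33 at day 1 (unadjusted p 0.059).

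The Cdkn1a probe was printed on 10 spots per array, which shows the noise within an array. The median SD among these spots was 0.17, giving a standard error of 0.05 for their mean. The SD between arrays, 1 per mouse, was 0.50 within groups and 0.24 within groups and scan days. Bax, also on 10 spots, had 0.12 among spots, 0.29 between arrays within groups and 0.18 within groups and scan days. The spread between arrays holds the labelling, hybridization and scan of each array as well as the mouse, and these cannot be told apart.

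The other growth arrest and stress genes gave small differences. Ccng1 encodes cyclin G1, a p53 target that acts in the feedback on Mdm2. It ran from -0.39 to 0.10 at day 1 and from -0.40 to 0.37 at day 28 over both treatments, with differences of -0.06 ± 0.14 and 0.02 ± 0.14, and -0.01 and -0.01 at its second probe. Sesn2 encodes sestrin 2, a stress protein that restrains mTORC1 signalling. It ran from -0.19 to 0.30 and from -0.25 to 0.28, with differences of 0.09 ± 0.11 and 0.00 ± 0.12. In both genes treated and control mice covered the same range.

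Gadd45a and Gadd45b encode related stress sensors that bind PCNA and p21 and signal to stress kinases. Gadd45a had levels of -1.22, -0.95, -1.42, -1.40 and -1.40 in control mice at day 1, and of -1.93 to -1.37 with a median of -1.46 in TiO2 mice, all 6 of which lay below the control mean. The difference was -0.27 ± 0.23 (limma unadjusted p 0.26, adjusted p 1.0), while the exact two-sided permutation test, which uses only these 11 mice, gave p = 0.037, unadjusted. On day 28 the TiO2 mice were spread from -2.46 to -0.55 around controls of -1.82, -1.34, -1.96 and -1.25, with a difference of 0.19 ± 0.24.

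Gadd45b at day 1 had -2.05, -1.40, -2.81, -2.69 and -2.49 in controls and -2.24 to -1.10, with a median of -2.07, in TiO2 mice. All 6 TiO2 mice were above the control mean, yet 5 lay inside the control range. The difference was 0.37 ± 0.24 (95% interval -0.12 to 0.86) at day 1 and 0.08 ± 0.25 at day 28, and 0.19 and 0.08 at a second probe that was above background on 16 arrays. The day 1 difference was 0.20 without TiO2 day 1 replicate 4, the highest liver of its group, and 0.59 without control day 1 replicate 2.

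Of the cell death genes, Bax encodes a pore-forming protein of the outer mitochondrial membrane. Its level at day 1 was -0.70, -1.33, -1.28, -1.34 and -1.17 in controls and -1.57 to -0.86 with a median of -1.13 in TiO2 mice. Controls of day 28 had -0.95, -1.20, -1.60 and -1.05 and TiO2 mice -1.58 to -0.69 with a median of -1.15. The groups overlapped almost fully, with differences of 0.01 ± 0.17 and 0.06 ± 0.18.

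Bbc3, which encodes the BH3-only protein PUMA, overlapped between treatments at both times. At day 1 the controls had -0.24, 0.40, 0.40, 0.04 and 0.72 and the TiO2 mice -0.48 to 0.70 with a median of 0.48. At day 28 the controls had -1.64, -0.08, -0.79 and -0.02 and the TiO2 mice -0.91 to 0.14 with a median of -0.59. TiO2 minus control was 0.04 ± 0.28 at day 1 and 0.15 ± 0.30 at day 28.

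Trp53inp1 encodes a stress protein that binds p53 and takes part in cell death and autophagy. It had the largest difference of the 10 genes at day 1. The controls had -0.35, 0.56, 0.10, 0.78 and 1.18, and the TiO2 mice 0.77 to 1.66 with a median of 1.18. All 6 TiO2 mice lay above the control mean, and 3 of them lay inside the control range. The difference was 0.75 ± 0.34, a 1.68-fold ratio with a 95% interval of 1.03 to 2.73. It had an unadjusted p of 0.039 and did not pass adjustment (limma, adjusted p 1.0). The exact two-sided permutation test gave p = 0.024, unadjusted.

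A second Trp53inp1 probe gave 0.70 ± 0.28 at day 1 and 0.17 ± 0.30 at day 28 on the same RNA. Within scan days the day 1 difference was 1.36, 0.94 and 0.34, and with scan day as a block it was 0.82 ± 0.29 (unadjusted p 0.011, limma adjusted p 0.99). Without control day 1 replicate 1, the lowest liver, the unblocked difference was 0.54. At day 28 the controls had 0.17, 2.28, 1.98 and 1.66 and the TiO2 mice 0.71 to 2.43 with a median of 2.01, a difference of 0.31 ± 0.36. Within scan days that difference was 1.84, -0.92 and 0.62, so its sign was not shared. The change in the TiO2 effect from day 1 to day 28 was -0.43 ± 0.49 (limma adjusted p 1.0), and in this comparison, too, 0 of 10 members were called (percent of all features called 0), and 0 had an unadjusted p under 0.05 beside 0.76% of features.

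**Figure D3:**
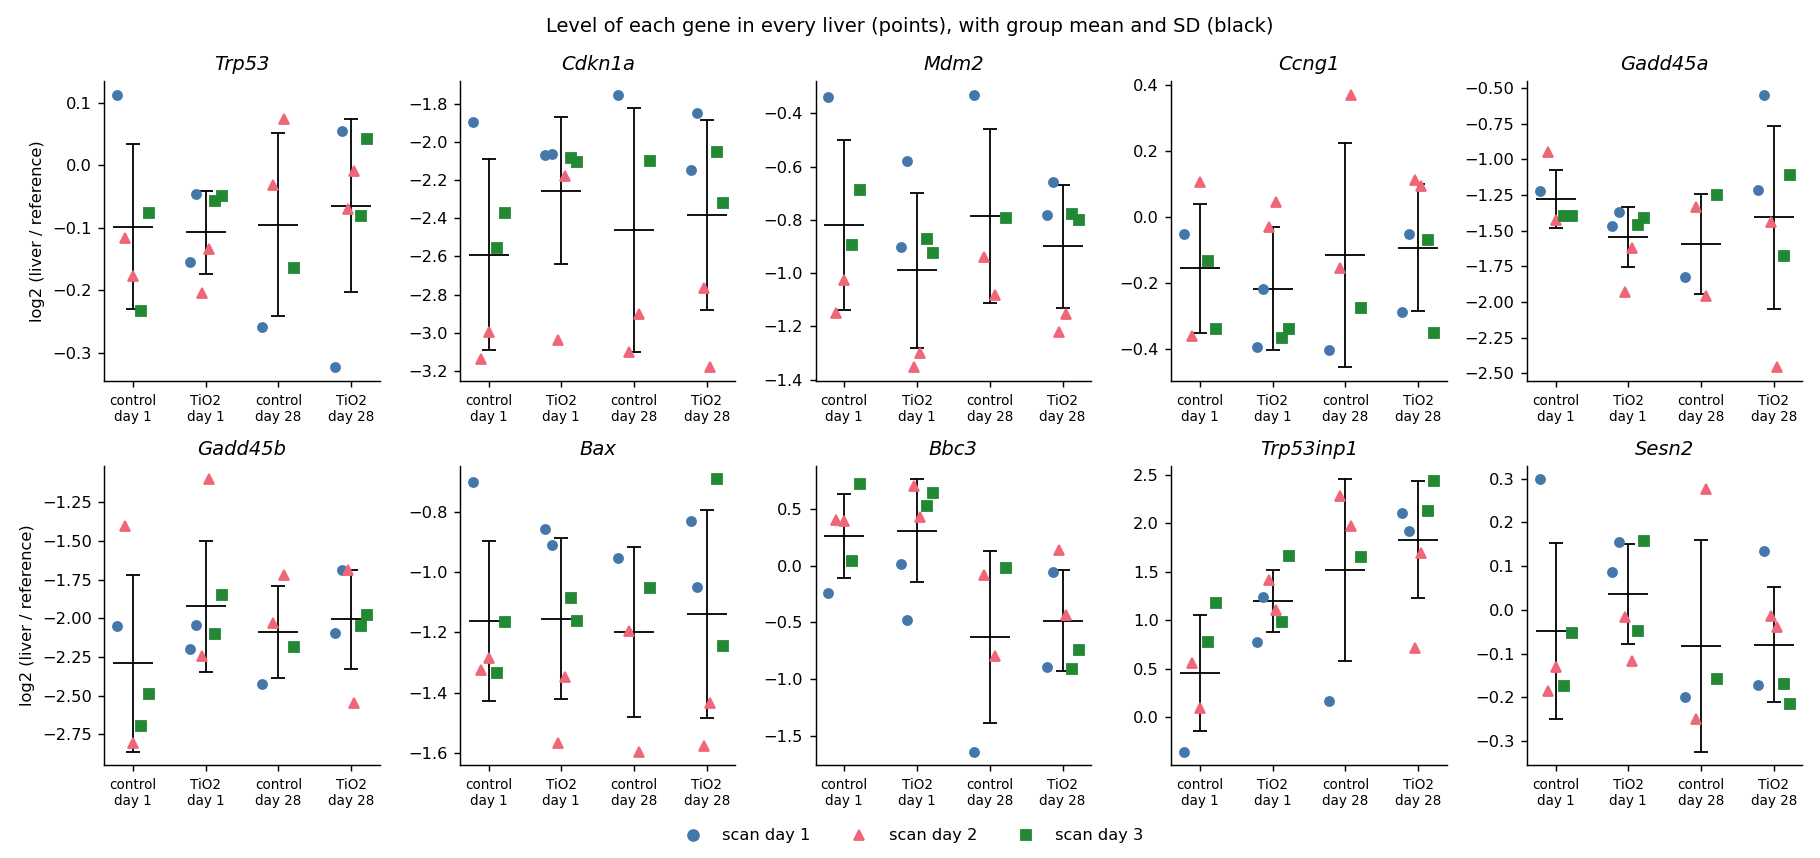
Level (log2 of liver over reference) of each of the 10 genes in every liver of the 4 groups, coloured and shaped by scan day, with the group mean and SD in black; the vertical scales differ between genes. Treated and control points overlap in every panel at both times, and the day 28 groups of Bbc3 lie lower and those of Trp53inp1 higher than the day 1 groups of the same treatment.

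Bbc3 and Trp53inp1 were the members with the largest differences by time after instillation. From day 1 to day 28 Bbc3 was lower by -0.90 ± 0.31 in control mice (unadjusted p 0.009) and by -0.79 ± 0.27 in TiO2 mice (unadjusted p 0.007), and Trp53inp1 was higher by 1.07 ± 0.38 (unadjusted p 0.010) and 0.63 ± 0.32 (unadjusted p 0.063). These are separate mice, so each value has its own error. At the second Trp53inp1 probe the differences over time were 0.95 ± 0.31 in controls and 0.42 ± 0.27 in TiO2 mice. By the exact two-sided permutation test the Bbc3 differences had p = 0.048 and p = 0.019, and those of Trp53inp1 p = 0.079 and p = 0.0498, unadjusted. In limma 0 of 10 members were called in controls (percent of all features called 0) and 0 of 10 in TiO2 mice (0.034% of features called). At an unadjusted p under 0.05 the comparisons held 2 and 1 of the 10 members, against 3.01% and 3.76% of features. In 0 members were the ranges of the days separate, beside 0.686% of features in controls and 0.363% in TiO2 mice. Without control day 28 replicate 1, the lowest liver, the Bbc3 difference in controls was -0.56.

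Over both treatments, a contrast added after these values were seen, the day 28 minus day 1 difference of Bbc3 was -0.84 ± 0.20, with a limma adjusted p of 0.16 (0.0907% of features called at an adjusted p and 6.41% at an unadjusted p under 0.05). With scan day as a block it was -0.84 ± 0.16 with an adjusted p of 0.022, so that 1 of 10 members was called beside 0.737% of features (13.2% at an unadjusted p under 0.05). This call held in 19 of 21 fits that each left out 1 liver, with a limma adjusted p of 0.051 without control day 1 replicate 5 and 0.058 without control day 28 replicate 3, which leave 35 and 45 features called. Trp53inp1 had 0.85 ± 0.25 (limma adjusted p 0.30) and, with the block, 0.89 ± 0.21 (adjusted p 0.055), which fell under 0.05 in 3 of those 21 fits. Within each scan day Bbc3 was lower at day 28 in both treatments, with differences of -1.40, -0.84 and -0.40 in controls and of -0.25, -0.72 and -1.41 in TiO2 mice. The control values of scan days 1 and 3 rest on 1 day 28 array each, and that of scan day 1 also on 1 day 1 array. For Trp53inp1 the differences within scan days were 0.53, 1.80 and 0.67 in controls and 1.00, -0.06 and 0.96 in TiO2 mice, so the sign was not shared in TiO2 mice. Its difference was 0.38 in controls without scan day 2 and 0.26 in TiO2 mice with slide as a fixed block. Time since instillation, age at killing and day of killing cannot be told apart here. In livers as a whole, a change in the level per cell and a change in the share of a cell type cannot be told apart either.

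Some other lists lay mostly to one side of 0 between the days. The median difference over all features was -0.005 in controls and 0.004 in TiO2 mice. The genes of a list are not independent of each other, so these counts of signs carry no test. Erythroid markers were lower at day 28 in 4 of 4 genes in controls (median -0.34) and in 4 of 4 in TiO2 mice (median -0.30), with 0 called and 0 at an unadjusted p under 0.05. With scan day as a block 1 erythroid marker had an unadjusted p under 0.05 in each treatment. In TiO2 mice 1541 of the 17640 features did so in that fit. In controls 294 to 1378 features did so over the alternative settings, the block among them. Acute phase genes were lower in 7 of 8 in controls (median -0.17, 0 called, 1 at an unadjusted p under 0.05 beside 3.01% of all features). In TiO2 mice 8 of 8 were lower (median -0.84), of which limma called 1, Lcn2 (-1.77 ± 0.25, adjusted p 0.006), and 3 with scan day as a block. Over all 17640 features these fits called 0.034% and, with the block, 19 features. Hepatocyte markers were lower in 7 of 7 in controls (median -0.12) and 4 of 7 in TiO2 mice (median -0.06), and the medians of the Kupffer, neutrophil, lymphocyte and lung markers lay between -0.12 and 0.10, with 0 called. The part of these lists in the differences of Bbc3 and Trp53inp1 was not tested.

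The members had 40 exact permutation tests (10 genes in 4 comparisons). Their smallest possible p was 0.002 at day 1, 0.005 at day 28 and 0.008 for the control mice over time. For the TiO2 mice over time it was also 0.002, since with 6 mice in each group every split has a mirror image. Of the 40 tests, 5 were below 0.05, unadjusted. They were those of Gadd45a and Trp53inp1 at day 1, Bbc3 over time in each treatment and Trp53inp1 over time in TiO2 mice.

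The wider p53 pathway was read from 4 further lists of genes that are not members. Of 37 genes measured out of 51 on the array, 24 were above and 13 below 0 at day 1, with a median of 0.03, and 22 and 15 at day 28, with a median of 0.02; limma called 0 of them at either time, and 1, Gadd45g, had an unadjusted p under 0.05 at day 1 beside 1.73% of all features. With scan day as a block these were 3, Gadd45g, Siva1 and Plk3, beside 4.09%. The kinases, partners and inhibitors that control p53 ran from -0.05 to 0.12 at day 1 over 9 genes (median 0.02) and from -0.11 to 0.22 at day 28 (median 0.02). Among these, Ppm1d, a phosphatase that p53 induces and that switches the response off, had 0.02 ± 0.13 and 0.22 ± 0.14, and Sirt1, a deacetylase of p53, 0.12 ± 0.13 and -0.05 ± 0.14.

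The 13 further targets of arrest and stress feedback had a median of 0.06 at day 1 and 0.03 at day 28. Gadd45g, the third member of the Gadd45 family, had 1.20 ± 0.51 at day 1 (unadjusted p 0.028, limma adjusted p 1.0) and 0.45 ± 0.54 at day 28. Ddit4, a stress-induced inhibitor of mTORC1 that also responds to glucocorticoids and low oxygen, had 0.64 ± 0.33 and 0.15 ± 0.35. The 10 further cell death targets had medians of -0.02 and 0.01, with Siva1 at 0.22 ± 0.12 and -0.04 ± 0.13 and Bid at 0.07 ± 0.08 and 0.11 ± 0.09. The 5 targets of repair and nucleotide supply had medians of 0.04 and 0.03, with Xpc, the damage sensor of nucleotide excision repair, at 0.16 ± 0.11 and 0.03 ± 0.12 and Ercc5 at 0.10 ± 0.14 and -0.09 ± 0.15.

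The DNA repair genes also had medians close to 0. Of 38 genes measured, 14 were above and 24 below 0 at day 1 and 19 and 19 at day 28. Limma called 0 at either time, with 1, Lig4, at an unadjusted p under 0.05 at day 1 beside 1.73% of all features. With scan day as a block 1 repair gene was under 0.05 at day 1, beside 4.09%. Base excision repair, the pathway for oxidised bases, had medians of -0.02 and 0.02 over 11 genes, with Neil1, a glycosylase, at -0.14 ± 0.11 and -0.09 ± 0.12 and Polb at -0.01 ± 0.08 and 0.15 ± 0.09. Nucleotide excision repair had -0.01 and 0.03 over 9 genes, with Rad23b at 0.23 ± 0.17 and 0.06 ± 0.19 and Ercc3 at -0.01 ± 0.11 and 0.17 ± 0.11. Mismatch repair had -0.10 and -0.06 over 6 genes, with Msh3 at -0.14 ± 0.13 and -0.09 ± 0.14 and Msh6 at -0.16 ± 0.15 and 0.19 ± 0.16.

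Repair of double-strand breaks had medians of 0.01 and -0.02 over 12 genes. Lig4, the ligase of end joining, had -0.31 ± 0.13 at day 1 (unadjusted p 0.026, limma adjusted p 1.0) and -0.08 ± 0.14 at day 28, while its other probe gave -0.001 at day 1. H2ax, the histone variant marked at breaks, had -0.32 ± 0.25 and 0.09 ± 0.26. Proliferation markers, genes of dividing cells, had medians of 0.12 and 0.02 over 6 genes, with Ccna2 at 0.11 ± 0.30 and 0.29 ± 0.35 and Plk1 at 0.12 ± 0.13 and 0.03 ± 0.14.

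**Figure D4:**
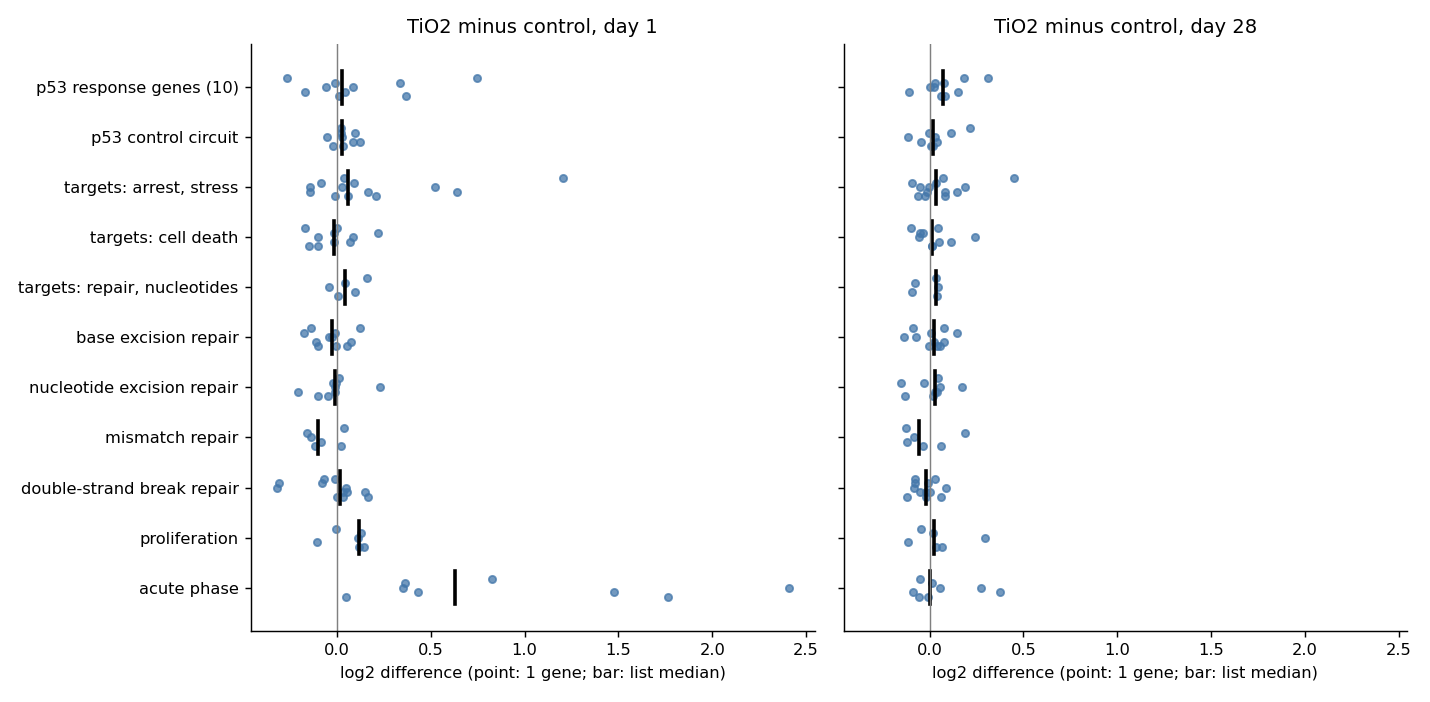
Difference between TiO2 and control mice on the log2 scale for each measured gene (points) of the 10 p53 response genes and of the other lists, at day 1 (left) and day 28 (right), with black bars at the list medians. The medians of the p53 and repair lists lie between -0.10 (mismatch repair at day 1) and 0.07 (the 10 genes at day 28). The acute phase genes lie to the right at day 1 with a median of 0.63.

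Acute phase transcripts, liver genes that respond to inflammation, lay higher in TiO2 mice at day 1, as did Trp53inp1, without passing the test. All 8 measured were above 0 with a median of 0.63, against a median of 0.00 at day 28. At day 1, 4 of them had an unadjusted p under 0.05 beside 1.73% of all features, and 6 with scan day as a block beside 4.09%. Limma with Benjamini-Hochberg adjustment called 0 at either time. Lcn2, which encodes lipocalin 2, differed by 1.48 ± 0.27 at day 1 (limma adjusted p 0.28) and Saa3, a serum amyloid A gene, by 2.41 ± 0.50 (limma adjusted p 0.75). The median level of the 8 genes per mouse ran from 3.15 to 4.39 in controls and from 3.77 to 5.75 in TiO2 mice at day 1. The part of these transcripts in the Trp53inp1 difference was not tested. Some marker lists lay mostly to one side at day 1. Hepatocyte markers were below 0 in 6 of 7 genes (median -0.18, lowest -0.58), erythroid markers in 4 of 4 (median -0.16), and Kupffer cell markers were above 0 in 6 of 7 (median 0.10), as they were in 7 of 7 at day 28. The median size of a difference over all features was 0.08 at day 1. Neutrophil markers had a median of 0.04 over 4 genes, lymphocyte markers 0.08 over 7 and lung markers 0.09 over 7, with 0 called and 0 at an unadjusted p under 0.05 in each of these 6 lists. The day 28 medians were 0.01 for hepatocyte, -0.06 for erythroid, 0.12 for Kupffer cell, 0.11 for neutrophil, 0.01 for lymphocyte and -0.02 for lung markers, with 0 called and 0 at an unadjusted p under 0.05. With scan day as a block 1 Kupffer cell marker was higher and 1 lung marker lower at an unadjusted p under 0.05 at day 28, beside 3.06% of all features. The part of the marker lists in the members' differences was not tested. Median levels of the neutrophil markers per mouse ran from -0.11 to 0.10 in controls and from -0.08 to 0.13 in TiO2 mice at day 1.

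Genes whose profile was most like a member were sought among 11103 named genes over the 21 arrays, after scan day means had been removed. Trp53inp1 went most closely with Slc38a2, an amino acid transporter (Pearson's r 0.86), Plk3, a stress-responsive polo-like kinase (0.82), Srsf4 (0.82), Arl4d (0.80) and Frmd4b (0.78). Between TiO2 and control mice these 5 genes differed at day 1 by 0.12 (Srsf4) to 0.56 (Arl4d), with Plk3 at 0.52 and Slc38a2 at 0.21. At day 28 they differed by -0.05 (Plk3) to 0.13 (Slc38a2). Group differences were left in when likeness was measured, so a day 1 difference shared with Trp53inp1 is partly built in. Cdkn1a went most closely with Nup160 (0.74), the ribosomal protein genes Rpl31 (0.74), Rps19 (0.72) and Rpl14 (0.71), and Hebp2 (0.73). These correlations describe arrays that share slides and a reference, and they were the highest of all genes by construction.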

How the data were processed

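Liver RNA of 21 mice was analysed; the design text names 22 arrays. The authors deposited the scanner files, whose median spot intensity and local background are not normalized, per the file headers (Feature Extraction 10.7.3.1; the submitters' processing notes name 9.5.3.1). They also deposited a table of log2 ratios, whose normalization no source used here states; it correlated at 0.996 to 0.997 with ratios made here without background subtraction, its direction is liver over reference, and its column medians lay between -0.06 and -0.01. The log10 ratio in the scanner files is background-subtracted and dye-normalized, per the file headers.

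Here intensities were background-corrected (normexp, offset 50) and loess-normalized within arrays in limma 3.58.1 (R 4.3.3), and spots of a probe were averaged. Of 41174 probes, 23374 matched 1 gene through RefSeq accessions (GRCm38.p6 tables). A probe was kept if it was above background in liver on at least 50% of the arrays of a group, and the probe with the highest mean liver signal stood for a gene, leaving 17640 features, 11255 of them named. In 210 features a value was missing and was left out by the fit; the 10 genes had none missing. One model of 4 group means was fitted, with Benjamini-Hochberg adjustment over all features; no effect of slide or scan day was in it, and both were alternatives. The code was tested on simulated data. The number of arrays limits the precision. Nothing in the labels ties replicate numbers to each other.

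The members, lists and settings were chosen with earlier results of these data known. Named were all members and, from each other list, the 2 genes with the smallest unadjusted p in either TiO2 comparison; Plk3, also a gene of the arrest list, and Slc38a2 entered by likeness. For the cell marker lists only medians are given. Of the p53 pair search, a form without the core C and G was also tried, under which 6 members and 11.7% of windows reached 17 matches.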

Additional observations from a re-analysis of the deposited data

Results flagged for a closer look

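Of 40 sets of values (10 genes in 4 groups), 5 held a liver set apart from the rest of its group by the Dixon test at the 95% level; chance gives about 1 in 20. Cdkn1a in TiO2 day 1 replicate 3 was -3.04, with the other 5 livers between -2.18 and -2.06. Its array was scanned on day 2, when the median Cdkn1a level was -3.02. Replicate 4 of that group, at -2.18, had the highest Cdkn1a level of scan day 2, beside -3.18 to -2.77 on the other arrays of that day. Gadd45b in TiO2 day 1 replicate 4, the same liver, was -1.10, with the others between -2.24 and -1.85. Control day 1 replicate 1, scanned on day 1, was high in Bax at -0.70 (others -1.34 to -1.17) and in Sesn2 at 0.30 (others -0.19 to -0.05). Trp53 in TiO2 day 28 replicate 1 was -0.32, with the others between -0.08 and 0.06.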

How the results depend on the processing

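No member was called in the TiO2, interaction or time comparisons under any alternative run; Bbc3 was called only in the added contrast of days over both treatments with scan day as a block, and no called value changed sign. In that added contrast Trp53inp1 was called in 1 of 21 fits that left out single mice without the block (limma adjusted p 0.044, without control day 28 replicate 1) and in 3 of 21 with it. In the TiO2 comparison at day 1 the count of all features called was 3 with slide as a random block and 1 with array weights in place of 0, and 0 to 3 when single mice were left out (3 without TiO2 day 1 replicate 2). For controls over time it was 27 with array weights and 0 to 1 without single mice (1 without control day 1 replicate 4). For TiO2 mice over time it was 6 in the main setting, 3 with an offset of 10 and 3 with normexp on all spots, 1 with the scanner's log ratio, 2 with scaling between arrays, 19 when scan day was blocked, 31 and 14 when slide was a random or a fixed block, 11 with array weights, and 1, 0 and 0 without scan day 1, 2 or 3; it was 5 to 9 without single mice. The cause was not tested. The Trp53inp1 difference at day 1 ran from 0.54 (array weights) to 1.04 (without scan day 3) over the settings, and from 0.54 to 0.93 without single mice, the lowest without control day 1 replicate 1. Its day 28 difference ran from -0.23 (without scan day 1) to 1.23 (without scan day 2). The Mdm2 difference at day 28 was 0.04 without control day 28 replicate 1, and at day 1 -0.05 without control day 1 replicate 1. Each was the only control of its time on scan day 1. Over the settings that left out no single mouse, the Mdm2 difference ran from -0.31 to -0.09 at day 1 and from -0.21 to -0.04 at day 28. The Bbc3 difference between days stayed below 0, from -1.12 to -0.69 in controls (-1.10 to -0.56 without single mice) and from -1.06 to -0.48 in TiO2 mice (-0.95 to -0.71). In the added contrast of days, leaving out single mice gave 35 to 256 features called with the block and 6 to 26 without it. No paired analysis was possible because the labels give no number that links a mouse of one group to a mouse of another.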
